A study of Homo sapiens with 6 samples.

Results

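The 9 genes described here are CCN1, CCN2, ANKRD1, AMOTL2, FJX1, GADD45B, NT5E, MYOF and LATS2, a set widely used as readouts of the transcriptional co-activators YAP and TAZ. They were taken by name: a probe set belonged to a gene where its single annotated symbol was that gene's, which gave 21 of the 54675 probe sets and 9 of the 19775 genes on the array. The probe set with the highest mean over the 6 arrays stood for the gene, and the other 12 are given beside it. CaSki is a long-established line from a human squamous carcinoma of the cervix, and its genome carries papillomavirus DNA. The culture medium was RPMI1640 to which antibiotics and 10% fetal bovine serum had been added, and 3 arrays came from cells given recombinant TGF-β1 at 2 ng/mL and 3 from cells in medium without it. All 6 arrays thus came from a single line in serum. The study asked which genes changed with TGF-β1, and whether genes of its pathway were among them. The sources used here do not say whether the 3 arrays of a group came from separate cultures or how long treatment lasted. The p-values therefore measure only how far these arrays spread, which may be technical.

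YAP and its paralogue TAZ (encoded by WWTR1) carry signals from cell shape, adhesion and the Hippo kinases to the nucleus. When the kinases MST1 and MST2 (encoded by STK4 and STK3) and LATS1 and LATS2 are active, YAP and TAZ are phosphorylated and kept in the cytoplasm; otherwise they bind TEAD proteins on DNA and switch on genes such as CCN1 and CCN2. TGF-β receptors act through SMAD proteins, and SMAD, TEAD and AP-1 factors are known to share target genes, CCN2 being the classic example.

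Promoter sequences from RefSeq (build GRCh38.p14) were matched for 8 of the 9 genes. The exception was CCN1, for which no promoter was available, so it was not searched. The TEAD core letters GGAATG, searched on both strands (CATTCC) from 250 bases before to 50 bases after the transcript start, occurred 3 times for CCN2, at positions -169 to -164, -104 to -99 and -95 to -90. ANKRD1 had 2 matches, at -220 to -215 and -128 to -123. AMOTL2 had 1, at -69 to -64 of the start at chr3:134374447, and LATS2 had 1, at 10 to 15 after the start. FJX1, GADD45B, NT5E, MYOF and the other AMOTL2 start had 0 in this window. Of 35116 RefSeq promoters of the same length, 14% held at least 1 match, 1.37% at least 2 and 0.128% at least 3. The SMAD half-site letters CAGAC are short, and 45.3% of promoters held them on one strand or the other. CCN2 had 1 such match, at -177 to -173, which lies beside its farthest TEAD match. ANKRD1 had 2, of which that at -132 to -128 shares 1 base with a TEAD match. MYOF, LATS2 and the other AMOTL2 start had 1 each, at -91 to -87, 44 to 48 and -95 to -91. The palindrome GTCTAGAC was in none of the 9 promoter windows of these genes and in 0.202% of all promoters. The AP-1 letters TGANTCA occurred in the ANKRD1 window, at -195 to -189, and in 7.71% of all promoters. A match is a description of letters and shows no binding. The 250 bases before the start are printed for 4 genes because they set the largest rise among the 9 (CCN2) and the other promoter with repeated TEAD letters (ANKRD1) beside a gene that rose (GADD45B) and a gene that fell (FJX1) with no match. Capitals mark the TEAD letters, and each sequence runs 5′ to 3′ on the gene's strand. The CCN2 stretch is chr6:131951373-131951622 on the minus strand, ANKRD1 is chr10:90921088-90921337 on the minus strand, GADD45B is chr19:2475877-2476126 on the plus strand and FJX1 is chr11:35618210-35618459 on the plus strand.
CCN2: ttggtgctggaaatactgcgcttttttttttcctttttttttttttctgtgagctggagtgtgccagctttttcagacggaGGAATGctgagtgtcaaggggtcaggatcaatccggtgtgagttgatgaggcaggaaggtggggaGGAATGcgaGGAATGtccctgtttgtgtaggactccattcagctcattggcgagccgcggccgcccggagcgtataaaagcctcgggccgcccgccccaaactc
ANKRD1: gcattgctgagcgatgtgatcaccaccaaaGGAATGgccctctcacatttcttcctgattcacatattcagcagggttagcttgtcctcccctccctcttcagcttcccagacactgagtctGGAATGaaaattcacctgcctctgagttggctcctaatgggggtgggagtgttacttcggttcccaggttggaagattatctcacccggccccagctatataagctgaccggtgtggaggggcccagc
GADD45B: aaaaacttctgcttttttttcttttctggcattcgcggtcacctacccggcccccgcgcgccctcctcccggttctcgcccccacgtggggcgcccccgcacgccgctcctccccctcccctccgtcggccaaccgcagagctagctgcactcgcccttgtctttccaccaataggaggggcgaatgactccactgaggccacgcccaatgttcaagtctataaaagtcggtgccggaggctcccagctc
FJX1: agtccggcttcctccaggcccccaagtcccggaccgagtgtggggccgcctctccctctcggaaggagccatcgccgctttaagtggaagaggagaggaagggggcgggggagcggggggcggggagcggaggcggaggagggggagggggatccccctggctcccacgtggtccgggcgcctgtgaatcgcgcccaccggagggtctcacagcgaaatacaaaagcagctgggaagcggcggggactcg

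The arrays held RMA values, log2 expression estimates with background removed and arrays put on a common distribution, with array medians between 4.15 and 4.18. Arrays of 1 group correlated with r of 0.994 to 0.996 over the probe sets, and those of opposite groups with r of 0.992 to 0.993. The array numbered 1 in each group stood apart: its 3′ over 5′ signal at the GAPDH and ACTB controls, a sign of RNA quality, was 1.19 (untreated) and 1.15 (treated) in log2 units, while the remaining 4 arrays had 0.69 to 0.86. The calls of the 9 genes and of the pathway lists that change without these 2 arrays are named below. All 12 measured of 15 listed squamous epithelial markers lay above the median of all probe sets (4.16). The lowest were PKP1 and DSG3, at 4.29 and 4.80 in untreated cells. The mean level over the 12 was 9.57 to 9.67 in untreated and 9.74 to 9.91 in treated cells. LAMB3, KRT14 and KRT8 rose by 1.06, 0.77 and 0.60, EPCAM fell by 0.70, and the other 8 did not pass. Of 14 fibroblast markers 8 lay below that median, among them LUM, POSTN and COL3A1. The 6 above it were DCN, PDGFRB, COL1A1, THY1, FAP and PDGFRL. The mean over the 14 was 4.21 to 4.32 in untreated and 4.44 to 4.51 in treated cells, and their summed signal was 9.06 to 9.24 and 10.1 to 10.2 in log2 units. COL1A1 and FAP rose by 1.58 and 0.89 and PDGFRL fell by 0.59, and the part of these markers in the results below was not tested. Endothelial and immune markers averaged 3.97 to 4.01 in untreated and 4.0 to 4.06 in treated cells over 14 genes. Of these, 7 lay above the median of all probe sets, so a level above it does not by itself mark a cell type.

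Of the 9 genes, 5 rose with TGF-β1 (CCN1, CCN2, ANKRD1, GADD45B and NT5E), 2 fell (FJX1 and MYOF), and AMOTL2 and LATS2 did not pass (limma, Benjamini-Hochberg adjusted p below 0.05 over 19775 genes). Over all genes 4.03% were higher and 4.47% were lower by the same rule. When only genes above the median of all probe sets were tested, 995 of 13097 were higher and 1301 lower, among them 4 and 2 of the 9. ANKRD1, below that median, was not tested there. The differences ran from -0.57 for FJX1 to 2.10 for CCN2 on the log2 scale, with a median of 0.53 against -0.003 over all genes. Without the 2 arrays numbered 1, 4 rose and 1 fell, since ANKRD1 (adjusted p = 0.0729) and MYOF (adjusted p = 0.0546) no longer passed. RNA came from whole cultures, so more RNA per cell and more cells with the RNA cannot be told apart.

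**Figure D1:**
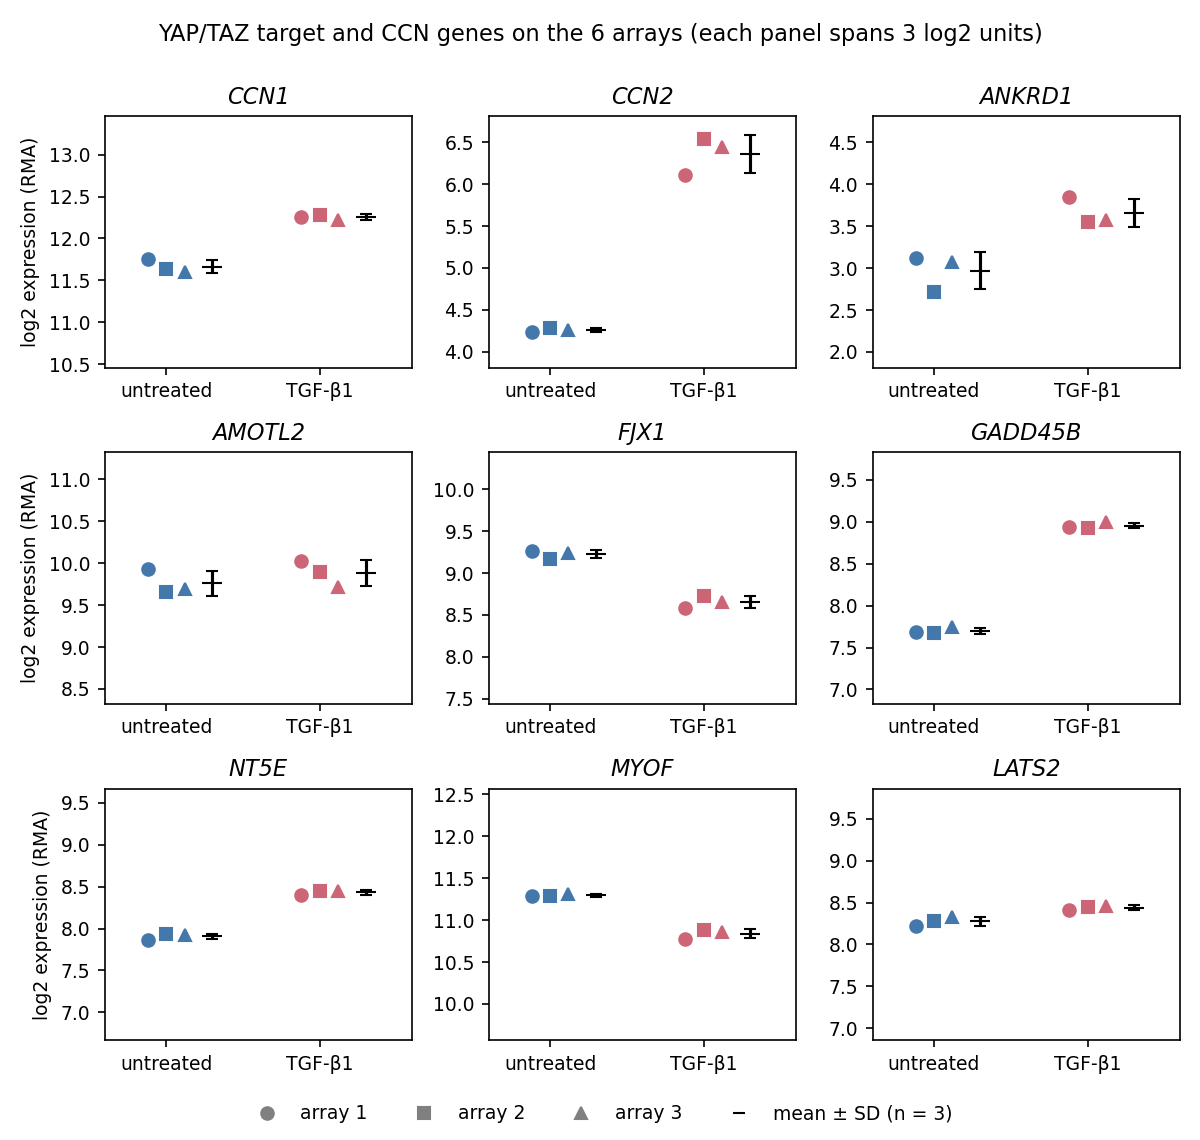
Log2 expression (RMA) of the 9 genes on each array, untreated in blue and TGF-β1 in red, with the symbol giving the array number and the black bar the mean ± SD (n = 3); every panel spans 3 log2 units on its own range. The treated values lie above all untreated values for 6 genes and below them for FJX1 and MYOF, and only AMOTL2 overlaps.

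The treated and untreated values did not overlap for 8 of the 9 genes, 6 of them higher and 2 lower with treatment. Over all genes 29.2% did not overlap, 12.9% higher and 16.3% lower. The exception was AMOTL2.

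The secreted CCN proteins come first. CCN2, formerly connective tissue growth factor, encodes a matricellular protein that binds integrins, growth factors and matrix, and it ranked 9 of 19775 by the size of its difference towards higher values. It read 4.23, 4.28 and 4.26 on the untreated arrays and 6.11, 6.53 and 6.44 on the treated arrays. The untreated values spanned 0.05 and just above the median of all probe sets, while treated array 1 was the lowest of its group and still 1.83 above the highest untreated array. CCN2 thus rose 4.29-fold (limma adjusted p = 3.6e-05), with log2 means of 4.26 ± 0.0235 and 6.36 ± 0.224 (SD, n = 3). It had 1 probe set, and RMA is known to compress differences near the background, so the fold is uncertain. Its difference stayed between 2.01 and 2.23 when any single array was left out.

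CCN1, formerly CYR61, encodes the closest relative of CCN2 as a YAP target, a matricellular integrin ligand induced early by serum and by cell spreading. It read 11.75, 11.63 and 11.60 on the untreated arrays and 12.26, 12.28 and 12.22 on the treated arrays. Every treated array lay above every untreated array, with untreated array 1 the nearest. CCN1 rose 1.51-fold (0.59 ± 0.07, log2, SE, n = 3 per group; limma adjusted p = 0.0024). Its second probe set rose 1.78-fold (limma adjusted p = 0.0011 over all probe sets), with log2 means of 10.52 ± 0.0547 and 11.35 ± 0.0796 (SD, n = 3). The 2 CCN genes were also set against each other within arrays. The CCN2 value minus the CCN1 value was between -7.51 and -7.34 on the untreated and between -6.15 and -5.75 on the treated arrays, with no overlap. It was 1.51 higher with TGF-β1 (p = 0.1 by a two-sided exact permutation test, and no smaller p is possible with 3 against 3 arrays). With the second CCN1 probe set the difference was 1.27, so its size depended on the probe set. The part of the dim untreated CCN2 signal in it was not tested.

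The other 4 members of the CCN family gave smaller and less certain differences. CCN5, which encodes the member that lacks the C-terminal cystine knot domain, fell 1.41-fold (limma adjusted p = 0.0495), with log2 means of 4.80 ± 0.0883 and 4.31 ± 0.25 (SD, n = 3). That call did not survive the removal of 5 of the 6 arrays singly (adjusted p up to 0.162), and its adjusted p over all probe sets was 0.0859. CCN4, a target of Wnt signalling, differed by 0.46 (adjusted p = 0.0655) at levels of 3.20 and 3.66, below the median. Its other 3 probe sets differed by -0.02 to 0.29. CCN3 differed by 0.13 and by -0.59 at its 2 probe sets, without passing. CCN6 differed by 0.14 and 0.06 at its 2 probe sets.

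The nuclear and stress-signalling genes ANKRD1 and GADD45B rose. GADD45B encodes a small stress protein that activates the kinase upstream of p38 and is a known immediate target of SMAD signalling. It read 7.68, 7.67 and 7.74 on the untreated arrays and 8.94, 8.93 and 9.0 on the treated arrays. The arrays of each group spanned 0.07, and the nearest arrays of the groups were 1.18 apart. GADD45B rose 2.39-fold (1.26 ± 0.07, log2, SE, n = 3 per group; limma adjusted p = 3.7e-05). A pair of further probe sets rose 2.01-fold and 2.04-fold. The last GADD45B probe set, the one without a suffix that marks shared sequence, differed by 0.17 with a 95% interval from -0.01 to 0.35 (adjusted p = 0.34). The probe sets of this gene therefore disagree in size. Of its family, GADD45A rose 1.3-fold (limma adjusted p = 0.0113) and GADD45G differed by -0.16 without passing (adjusted p = 0.463). GADD45A no longer passed without untreated array 2 (adjusted p = 0.0545) or without the 2 arrays numbered 1 (adjusted p = 0.0712).

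ANKRD1 encodes an ankyrin repeat protein known from heart and muscle that moves between the sarcomere and the nucleus. It read 3.12, 2.71 and 3.07 on the untreated arrays and 3.85, 3.55 and 3.58 on the treated arrays. All 6 values lay below the median of all probe sets, and the lowest treated array was 0.43 above the highest untreated array. ANKRD1 rose 1.61-fold on this scale (0.69 ± 0.13, log2, SE, n = 3 per group; limma adjusted p = 0.0159). It had 1 probe set, and with no detection call here the fold of such a dim signal is uncertain. Its relatives ANKRD2 and ANKRD23 differed by 0.32 and -0.29 without passing (adjusted p = 0.14 and 0.231).

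**Figure D2:**
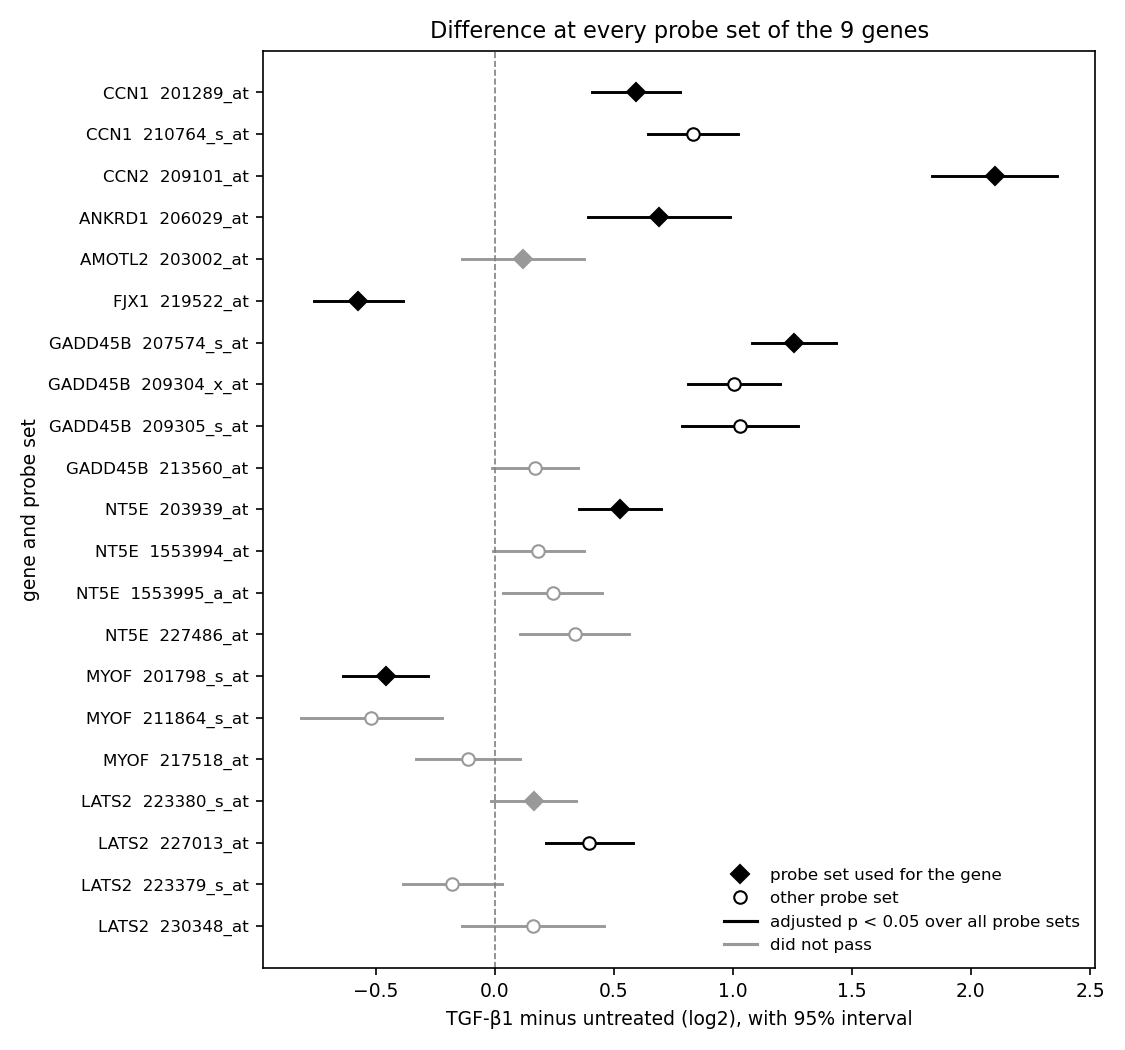
Difference between TGF-β1 and untreated cells (log2, horizontal axis) with its 95% interval for each of the 21 probe sets of the 9 genes, diamonds for the probe set that stands for the gene and circles for the others; black marks an adjusted p below 0.05 over all 54675 probe sets. The CCN1 and CCN2 probe sets all lie to the right of 0, those of MYOF to the left, and those of LATS2 on either side.

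Among genes of the cell surface and membrane, NT5E rose and MYOF fell. NT5E encodes CD73, the surface enzyme that turns AMP into adenosine. It read 7.87, 7.93 and 7.92 on the untreated arrays and 8.40, 8.45 and 8.45 on the treated arrays. The groups were 0.47 apart at their nearest arrays. NT5E rose 1.44-fold (0.53 ± 0.07, log2, SE, n = 3 per group; limma adjusted p = 0.0028). Its other 3 probe sets differed by 0.18, 0.24 and 0.34 in the same direction without passing (adjusted p = 0.324, 0.217 and 0.13 over all probe sets). Among 7 other measured genes of adenosine production and sensing, ADORA2B, a receptor for adenosine, fell 1.42-fold (limma adjusted p = 0.00376), with log2 means of 7.83 ± 0.0252 and 7.32 ± 0.0512 (SD, n = 3). The remaining 6 did not pass, with ADA, which degrades adenosine, at 0.30, ADORA1 at -0.09 and ADORA3 at 0.07.

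MYOF encodes myoferlin, a ferlin that works in membrane fusion and repair. It read 11.29, 11.29 and 11.32 on the untreated arrays and 10.78, 10.89 and 10.86 on the treated arrays. Every treated array was below every untreated array. MYOF was 1.37-fold lower with TGF-β1 (-0.46 ± 0.07, log2, SE, n = 3 per group; limma adjusted p = 0.00595). The second probe set differed by -0.52, with values of 9.56 ± 0.155 and 9.04 ± 0.223, and did not pass over all probe sets (adjusted p = 0.0776). Its dimmest probe set, at a level of 4.79 in untreated cells, differed by -0.11 (adjusted p = 0.626). Of the other ferlins 4 were measured and 0 passed in the limma fit, with DYSF at -0.17, OTOF at 0.10, FER1L5 at -0.04 and FER1L4 at -0.04.

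FJX1 encodes the human counterpart of the fly four-jointed kinase, which in flies modifies the Fat and Dachsous cadherins upstream of Hippo. It read 9.27, 9.17 and 9.24 on the untreated arrays and 8.58, 8.73 and 8.65 on the treated arrays. The highest treated array was 0.44 below the lowest untreated array. FJX1 was 1.49-fold lower (-0.57 ± 0.07, log2, SE, n = 3 per group; limma adjusted p = 0.00304), and it had 1 probe set. It passed without any single array (adjusted p up to 0.0195) and without the 2 arrays numbered 1.

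The feedback genes AMOTL2 and LATS2 encode proteins that restrain YAP and are themselves YAP targets: AMOTL2 is an angiomotin scaffold that holds YAP at junctions and actin, and LATS2 is the kinase that phosphorylates it. AMOTL2 read 9.93, 9.66 and 9.69 on the untreated arrays and 10.03, 9.90 and 9.72 on the treated arrays. The groups overlapped, since untreated array 1 was above treated arrays 2 and 3. The difference of AMOTL2 was 0.12 and did not pass (limma adjusted p = 0.566). Its 95% interval ran from -0.13 to 0.37, which leaves out a difference as large as that of CCN1, 0.59.

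LATS2 read 8.22, 8.28 and 8.33 on the untreated arrays and 8.41, 8.45 and 8.46 on the treated arrays. The treated values were all higher, by 0.08 at the nearest arrays. The difference was 0.16 with a 95% interval from 0.01 to 0.32 and did not pass (limma adjusted p = 0.199). A second LATS2 probe set, without a shared-sequence suffix, rose 1.32-fold (limma adjusted p = 0.0349 over all probe sets), with log2 means of 7.81 ± 0.0718 and 8.20 ± 0.0296 (SD, n = 3). The others differed by -0.18 at a level of 4.81 in untreated cells and by 0.16 at 3.20, and neither passed (adjusted p = 0.386 and 0.603). Whether LATS2 is counted as risen therefore depended on the probe set.

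Of the 12 probe sets that did not stand for their gene, 4 rose and 8 did not pass, against 3.24% of all probe sets called in either direction. The 4 were those of CCN1, GADD45B (2 of them) and LATS2, and of these genes only LATS2 was not called at its main probe set. Among the 12, 11 lay above the median of all probe sets, while the 3.24% covers dim probe sets as well.

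The rest of the Hippo pathway, YAP and TAZ themselves, TEAD factors and further targets were followed through lists drawn up from general knowledge. These lists were chosen with earlier results of these data known, so their shares of called genes are a description. In 64 measured genes of these lists other than the 9, 12 rose and 6 fell, which is 28.1% against 8.5% over all genes. The list genes were brighter than most. With the 9 included, 29 of 32 Hippo genes, 10 of 10 effectors and 21 of 21 other targets lay above the median of all probe sets. Over all genes it was 13097 of 19775. When only those 13097 were tested, 2296 passed, among them 20 list genes other than the 9. At a mean of at least 5, 2506 of 10735 passed, among them 24. Without the 2 arrays numbered 1, 7 of the 64 passed: 6 of the 18 (FRMD6, VGLL3, TGFBI, TGFB2, RBMS3 and ARHGAP29) and HMMR, which then passed at -0.49 (adjusted p = 0.0479). The 12 that no longer passed were CCN5, WWC1, STK3, CRB3, WWTR1, TEAD2, VGLL1, THBS1, EDN1, GADD45A, IGFBP3 and AXL (adjusted p from 0.0511 for WWC1 to 0.192 for TEAD2). Without untreated array 1, 2 or 3, the numbers were 11, 8 and 9. Fewer arrays enter these fits, and over all 19775 genes 628 passed without the 2 arrays numbered 1. Leaving out untreated array 1, 2 or 3 gave 878, 766 and 772, against 1680 with all 6 arrays.

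**Figure D3:**
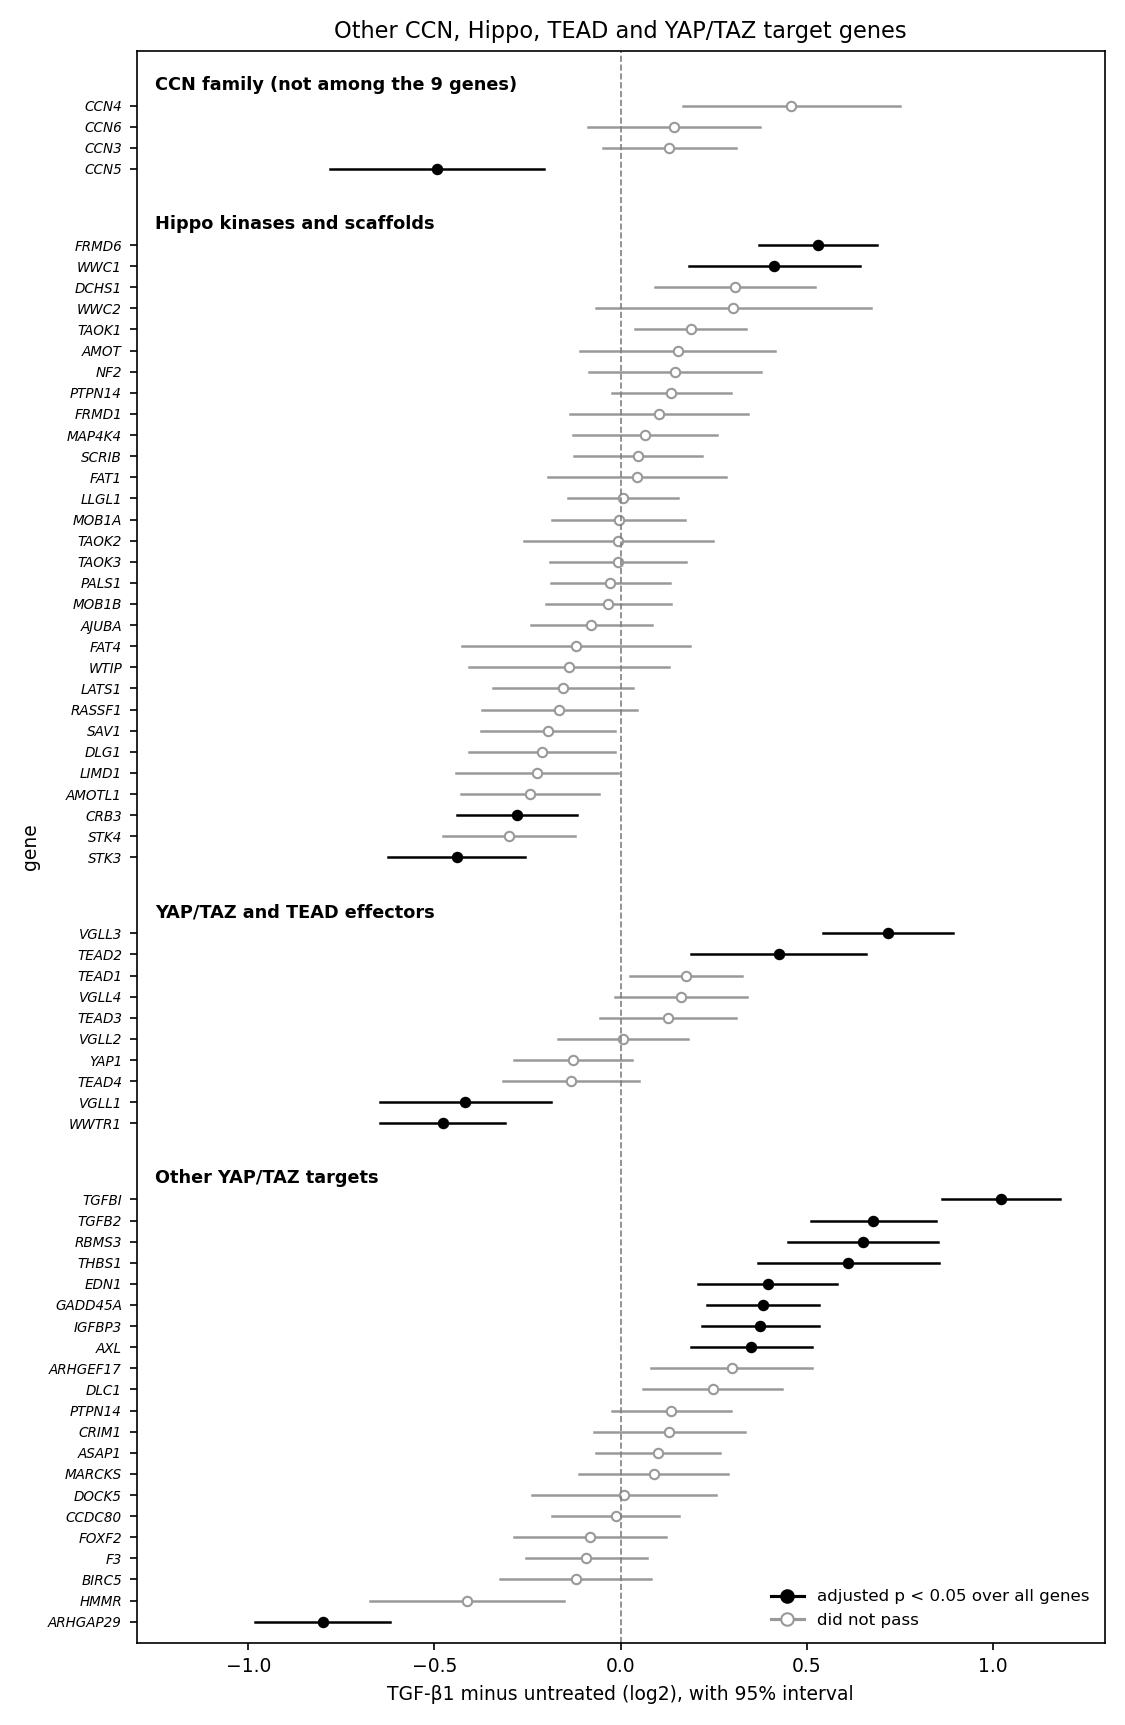
Difference between TGF-β1 and untreated cells (log2, horizontal axis) with its 95% interval for each measured gene of 4 lists, the 9 genes left out; filled black points passed at an adjusted p below 0.05 over all genes and open grey points did not. TGFBI at 1.02 lies farthest to the right and ARHGAP29 at -0.80 farthest to the left.

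Of 30 measured Hippo kinases and scaffolds besides AMOTL2 and LATS2, 2 rose and 2 fell, with a median of -0.01 (log2), beside 8.5% of all genes called. When only genes above the median of all probe sets were tested, 2296 of 13097 passed, and this list had 2 rises and 3 falls. FRMD6, a FERM domain protein that activates the pathway, rose 1.44-fold (limma adjusted p = 0.00325), with log2 means of 11.94 ± 0.0503 and 12.47 ± 0.0385 (SD, n = 3), and its second probe set rose by 0.57. WWC1, the scaffold KIBRA, rose 1.33-fold (adjusted p = 0.0418), but removing any of 5 arrays singly ended that call (adjusted p up to 0.126). Its 7 other probe sets ran from -0.30 to 0.35 without passing, and the mean over all of them differed by 0.11 (adjusted p = 0.362). STK3, the MST2 kinase, fell 1.36-fold (adjusted p = 0.0146). It missed the threshold when untreated array 2, untreated array 3 or treated array 3 was removed (adjusted p = 0.0616, 0.0622 and 0.0535) and without the 2 arrays numbered 1 (adjusted p = 0.0513). CRB3, a polarity protein, fell 1.21-fold (adjusted p = 0.0482) and missed the threshold whichever of the 6 arrays was removed (adjusted p up to 0.16). STK4, the MST1 kinase, differed by -0.30 just outside the threshold (adjusted p = 0.0519), DCHS1, a cadherin, by 0.31 and AMOTL1, a relative of AMOTL2, by -0.24. Of the 67 probe sets of this list that did not stand for their gene, 1 rose (the second of FRMD6) and 3 fell, which is 5.97% against 3.24% of all probe sets. The falls were 1 probe set each of TAOK1, a kinase that activates MST (-1.0, adjusted p = 0.00158), LIMD1, an adaptor that binds LATS (-0.55, adjusted p = 0.0469), and AMOTL1 (-0.46, adjusted p = 0.0433). The brightest TAOK1 probe set differed by 0.19 and the other 4 by -0.13 to 0.07, without passing, so the TAOK1 probe sets disagree.

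Of YAP1, WWTR1 and the 8 measured TEAD and vestigial-like genes, 2 rose and 2 fell, beside 8.5% of all genes called. YAP1 read 12.51, 12.45 and 12.44 on the untreated arrays and 12.39, 12.32 and 12.30 on the treated arrays. All treated values were lower by a small margin, and the difference of -0.13 did not pass (95% interval -0.29 to 0.03, limma adjusted p = 0.315). The other YAP1 probe sets differed by -0.25 and -0.15 without passing (limma adjusted p = 0.153 and 0.365 over all probe sets). WWTR1, which encodes TAZ, read 7.24, 7.36 and 7.27 on the untreated arrays and 6.78, 6.89 and 6.77 on the treated arrays. It fell 1.39-fold (-0.48 ± 0.07, log2, SE, n = 3 per group; limma adjusted p = 0.00682), while its 2 dimmer probe sets differed by -0.17 and -0.33 without passing, and without the 2 arrays numbered 1 its adjusted p was 0.0566. VGLL3, a vestigial-like partner of TEAD, rose 1.65-fold (limma adjusted p = 0.00118), and its second probe set rose by 0.56. TEAD2 rose 1.34-fold (adjusted p = 0.0416) and VGLL1 fell 1.34-fold (adjusted p = 0.0405), but both missed the threshold on removal of 5 of the 6 arrays singly (adjusted p up to 0.136 and 0.134). The other TEAD2 probe sets differed by -0.28, -0.01 and 0.19, and the mean over its probe sets by 0.08 (adjusted p = 0.566). The other VGLL1 probe sets differed by -0.35 and -0.07 without passing, and the latter is the one without a shared-sequence suffix. TEAD1 differed by 0.18, VGLL4 by 0.16, TEAD3 by 0.13 and TEAD4 by -0.13, without passing. Of the 14 probe sets of this list that did not stand for their gene, 1 rose (the second of VGLL3) and 0 fell. That is 7.14% against 3.24% of all probe sets.

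Among 21 other measured YAP/TAZ targets 8 rose and 1 fell, with a median of 0.14 (log2), beside 4.03% higher and 4.47% lower over all genes. All 21 lay above the median of all probe sets. Some genes of this list, NUAK2 and AREG among them, were not analysed here. The largest rise was that of TGFBI, a secreted matrix protein named for its induction by TGF-β, at 2.03-fold (limma adjusted p = 1.3e-04), with log2 means of 13.21 ± 0.0521 and 14.23 ± 0.0373 (SD, n = 3). TGFB2, a TGF-β ligand, rose 1.6-fold, RBMS3, an RNA-binding protein, 1.57-fold and THBS1, a matrix protein that activates latent TGF-β, 1.53-fold. EDN1, which encodes endothelin, rose 1.31-fold, IGFBP3 1.3-fold and the receptor tyrosine kinase AXL 1.27-fold. Removing arrays singly ended the call of EDN1 for 6 arrays, of AXL for 5 and of IGFBP3 for 3 (adjusted p up to 0.0815, 0.0884 and 0.068). THBS1 missed the threshold without untreated array 3 (adjusted p = 0.0553). The 1 fall was ARHGAP29, a GTPase activating protein, 1.74-fold lower (limma adjusted p = 8.3e-04), with log2 means of 11.69 ± 0.0212 and 10.89 ± 0.11 (SD, n = 3) and a second probe set at -1.01. HMMR, ARHGEF17 and DLC1 were nearest to the threshold without passing, at -0.41, 0.30 and 0.25 (adjusted p = 0.0645, 0.0971 and 0.109), and the second DLC1 probe set rose by 0.47. The coagulation factor gene F3 and CRIM1, also YAP targets, differed by -0.09 and 0.13, without passing. Of the 53 probe sets of this list that did not stand for their gene, 10 rose and 1 fell. That is 20.8% against 3.24% of all probe sets. The called probe sets belonged to 7 genes, all but DLC1 also called at the probe set that stood for them. They are therefore mostly repeat readings of changes already counted.

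The genes whose values over the 6 arrays ran most like those of CCN2 were COL4A2, FOXP1, PLAU, ADAM19 and PINK1, among 13096 genes above the median. This is a description: the 6 arrays fall into 2 groups, and any gene with a large and even rise ranks high. COL4A2, a basement membrane collagen chain, rose by 1.70, PLAU, the urokinase activator, by 2.06 and ADAM19, a membrane protease, by 1.62 on the log2 scale. FOXP1, a transcription factor, and PINK1, a mitochondrial kinase, rose by 0.78 and 0.67.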

How the data were processed

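Total RNA of 6 CaSki samples was hybridised to Affymetrix expression arrays. The authors deposited 1 log2 value for each probe set, made with Affymetrix Expression Console and RMA, per the submitters' processing notes; the sources used here give no versions, and the log2 scale was read from the values (1.57 to 14.5). Probe sets were named from the platform annotation: 41091 carried 1 symbol, 1801 several and 11721 none, and 62 were controls. RefSeq gene numbers changed 0 symbols. The functions lmFit and eBayes of limma 3.58.1 (R 4.3.3) compared the groups with neither covariate nor filter, with Benjamini-Hochberg adjustment over 19775 genes, or over 54675 probe sets where single probe sets are given. The fit was tested on simulated data. Arrays have no read depth, and 3 per group limit the precision. The 9 genes, the lists and the tests were chosen with earlier results of these data known. The text names the 9 genes, called list members, up to 3 others per list with the smallest p, and the 5 genes most like CCN2; TAOK1, LIMD1, OTOF, FER1L5, FER1L4, TEAD3, TEAD4, ADORA3, CRIM1, F3 and the marker genes were named after their values were seen. Same-numbered arrays were not paired: their deviations from group means correlated at 0.18, 0.04 and 0.08, and 1 of these exceeded 0.1. Alternatives were other normalizations, filters, probe set choices, variance models, weights, a replicate block and the removal of arrays.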

Additional observations from a re-analysis of the deposited data

How the results depend on the processing

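Of 19775 genes 1680 changed. The number was 1004 of 16788 when suffixed probe sets were left out, 2629 with a trended robust variance, 628 without the 2 arrays numbered 1, and 766 to 1319 without single arrays, below 1680 by over 1.5 times for each array but treated array 1; fewer samples enter those last fits. Rises were 47.4% of calls, 57% without the 2 arrays numbered 1, and 50.5% to 58.9% without single arrays except 47.8% without treated array 3. The 5 rises and 2 falls among the 9 genes passed without any single array, with adjusted p up to 0.0449 for ANKRD1. Genes lower among the 9 numbered 1 without suffixed probe sets, where MYOF was at -0.11 and GADD45B at 0.17 without passing and LATS2 passed at 0.40, and 1 without the 2 arrays numbered 1. Called genes of the fixed lists numbered 18, and 11 with probe sets tested singly, 7 without the 2 arrays numbered 1 and 8 to 14 without single arrays. The difference between CCN2 and CCN1 within arrays was 1.43 to 1.64 higher without single arrays and 1.27 higher with the second CCN1 probe set, a choice made after seeing the data. With a replicate block 1280 genes changed, and the same 5 rises and 2 falls were called; of the list genes named above, CRB3 and TEAD2 no longer passed. For 4 of the 6 arrays the best match was the array of the same number. The 9 genes and the called list genes kept the sign of their difference in each alternative in which they were tested. ANKRD1, below the median, was not tested under the 2 filters on dim probe sets. Scanner files were not used, so signal over background limits what can be said of ANKRD1, CCN4 and untreated CCN2.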
